A study of Arabidopsis thaliana with 16 samples.

Results

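SWEET genes encode membrane proteins that let sugars pass down their concentration gradient, and the members with a clear signal in seedling roots of Arabidopsis thaliana are described here. They were chosen as genes whose symbol is SWEET with a number, which are the only gene paired with a probe set, and whose mean intensity reached 100 in at least 1 of the 4 groups. Of 17 SWEET genes known to RefSeq, 14 carried such a symbol and were measured, and 5 of these met the threshold: SWEET2, SWEET3, SWEET11, SWEET16 and SWEET17. They stand among 13356 genes paired alone with a probe set and 22746 probe sets tested. The intensities chose the members, and SWEET11 was named with earlier results of these data known. Each of the 14 genes had 1 probe set, so no choice between probe sets was needed.

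The groups were HRE1-RNAi hypoxia, HRE1-RNAi normoxia, wild type hypoxia and wild type normoxia, with 4 biological replicates and 1 one-colour Affymetrix array per replicate. All plants were of the Columbia ecotype and 14 d old, and RNA came from their roots. In the HRE1-RNAi line, RNA interference targets the ethylene response factor gene HRE1, also named AtERF73. The sample titles give HRE1-RNAi20 but the descriptions of most of these samples give numbers from 21 to 24, so that 1 line and several lines cannot be told apart, and the promoter driving the RNAi is not given in the labels. For hypoxia, seedlings spent 1 h in the dark on wet filter paper and then 6 h in the dark with their roots in medium supplied with 3% oxygen. Growth and treatment media held 0.5% sucrose, so sugar was supplied from outside in the hypoxia treatment. How the normoxia seedlings were kept during the treatment is not given in the labels.

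SWEETs form 4 clades. Clade I and clade II members carry mainly hexoses, clade III members carry sucrose across the plasma membrane, and clade IV members sit in the tonoplast and move fructose and other sugars between vacuole and cytosol. In roots, sucrose arrives through the phloem and is either used, stored in vacuoles or lost to the soil. Oxygen shortage limits respiration, and cells then draw on glycolysis and fermentation, which use more sugar per unit of ATP. The measured SWEETs were 3 of clade I, 4 of clade II, 5 of clade III and 2 of clade IV, and those that met the threshold were 2, 0, 1 and 2 of these.

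Intensities are MAS5 values on a linear scale. A change is the difference between 2 groups' mean log2(intensity + 16), from limma fitted over all 16 arrays, and is given with its standard error (n = 4 arrays per group). A probe set was called at a Benjamini-Hochberg adjusted p below 0.05 over all probe sets. The number of arrays limits the precision. Each probe set has its own response, so intensities of different genes are set only against the common threshold and rank no gene's transcript level against another's. In whole roots, fewer cells of a type and less RNA per cell cannot be told apart.

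Array medians lay between 166.3 and 191.1 in HRE1-RNAi hypoxia, 179.95 and 206.5 in HRE1-RNAi normoxia, 168.85 and 178.05 in wild type hypoxia and 179.9 and 193.6 in wild type normoxia. CML38, a calmodulin-like gene strongly induced by low oxygen, averaged 5572.6 in HRE1-RNAi hypoxia against 69.6 in HRE1-RNAi normoxia, and 6143 in wild type hypoxia against 142 in wild type normoxia. HRE1 itself was not analysed here, as 0 probe sets were paired with it. Of 10 root markers 3 were measured, all of them root hair wall genes, and their summed intensity was 362.7 to 992.5 in HRE1-RNAi hypoxia against 1567 to 1866 in HRE1-RNAi normoxia, and 351.4 to 574.7 in wild type hypoxia against 1148 to 1687 in wild type normoxia. Of 10 shoot markers 1 was measured, the light-harvesting gene LHCB4.1, at 735.5 to 1022 in HRE1-RNAi hypoxia against 1382 to 1608 in HRE1-RNAi normoxia, and 698.3 to 837.9 in wild type hypoxia against 1328 to 1721 in wild type normoxia. It was thus present in every array of a sample labelled as roots and was lower in hypoxia, by 0.86 ± 0.13 log2 in HRE1-RNAi and 0.98 ± 0.13 log2 in wild type. No measured marker was at 0. Of 7 phloem and 4 xylem markers 0 were measured. The part of shoot tissue, root hairs or vascular cells in the values below was not tested.

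Hypoxia against normoxia, in each line, asks which SWEET genes differ between the treatments. As the handling of the normoxia seedlings is not given, low oxygen, darkness and transfer cannot be told apart. A test was read only for the 3 members that kept a mean of at least 100 in every group and were not named in the rule, SWEET2, SWEET16 and SWEET17. In HRE1-RNAi hypoxia SWEET2 rose, SWEET17 fell and SWEET16 did not pass. SWEET3 and SWEET11 had lower means there, which is a description. Of all probe sets 18.2% were called (7.51% higher and 10.7% lower), and 26.5% of those that reached a group mean of 100, whose median change was -0.09 log2 against -0.65 for the 5 members. In wild type hypoxia SWEET2 rose and SWEET16 and SWEET17 fell, and SWEET3 and SWEET11 again had lower means. There 17.8% of all probe sets (7.2% higher and 10.6% lower) and 25.9% of the brighter ones passed, with a median of -0.06 for the brighter ones against -0.69 for the 5 members. The members were chosen by their intensities, so these counts and medians are no support for a shift of the family.

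The clade III gene SWEET11 encodes a plasma membrane sucrose exporter known for loading the phloem in leaves, together with SWEET12. Its intensities were 1045.3, 1184.7, 1138.8 and 1222.8 in HRE1-RNAi hypoxia, against 4888.9, 4636.7, 5025.5 and 4751.4 in HRE1-RNAi normoxia. In wild type they were 913.1, 843.2, 851.1 and 922.1 in hypoxia, against 3687.1, 2848.1, 3148.4 and 3249.1 in normoxia. Every hypoxia array lay below every normoxia array of either line, and within each group the arrays lay close together. Groups without overlap were found for 19.5% of all probe sets in HRE1-RNAi and 22.1% in wild type. The hypoxia mean was 23.8% of the normoxia mean in HRE1-RNAi, a change of -2.06 ± 0.11 log2, and 27.3% in wild type, a change of -1.85 ± 0.11. These changes are given as a description, since the gene was named for inclusion with results known. Of all tested probe sets, 0.607% had a more negative change in HRE1-RNAi and 0.778% in wild type. LHCB4.1, the only shoot marker measured, was also lower in hypoxia, to a smaller extent on the log2 scale. The part of shoot tissue in the SWEET11 change was not tested.

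SWEET3 belongs to clade I, and its transport role is less well known than that of its relatives. It had 99.1, 109.4, 86.7 and 113.2 in HRE1-RNAi hypoxia, against 522.3, 537.4, 645 and 483.8 in HRE1-RNAi normoxia. In wild type the hypoxia arrays gave 96.7, 106.2, 74.5 and 66.2, against 497.6, 502.7, 406.6 and 531.6 in normoxia. The hypoxia arrays of both lines lay far below all normoxia arrays, around the threshold of 100. Within a line, 19.5% of all probe sets had no overlap in HRE1-RNAi and 22.1% in wild type. The hypoxia mean was 18.7% of the normoxia mean in HRE1-RNAi (-2.25 ± 0.16 log2) and 17.7% in wild type (-2.31 ± 0.16). With a mean of 85.9 in wild type hypoxia, SWEET3 met the threshold through the other groups, so its change is a description, with no test. With a pseudocount of 16 its change was more negative than that of SWEET11 in both lines. With a pseudocount of 64 the order turned in HRE1-RNAi, with -1.88 for SWEET3 and -2.01 for SWEET11, and in wild type the values were -1.87 and -1.80.

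SWEET2, the other clade I member, is a tonoplast sugar transporter of root cells, known for limiting the loss of sugar from roots to the soil. In HRE1-RNAi it had 937.3, 690.9, 615.1 and 742.4 in hypoxia, against 250, 243.9, 208.8 and 263 in normoxia. In wild type it had 646.8, 621.9, 912.5 and 731.4 in hypoxia, against 230.3, 163.2, 244 and 275.1 in normoxia. All 8 hypoxia arrays were above all normoxia arrays. Within a line, groups without overlap made up 19.5% of all probe sets in HRE1-RNAi and 22.1% in wild type. SWEET2 was 3.09-fold higher in HRE1-RNAi hypoxia by the ratio of means, a rise of 1.55 ± 0.17 log2 (limma adjusted p = 2.75e-07), and 3.19-fold higher in wild type hypoxia, a rise of 1.61 ± 0.17 log2 (limma adjusted p = 1.7e-07). Its group means were above 100 throughout. It was the only one of the 14 measured SWEET genes called higher in hypoxia, in either line, where 7.51% of all probe sets were called higher in HRE1-RNAi and 7.2% in wild type.

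**Figure D1:**
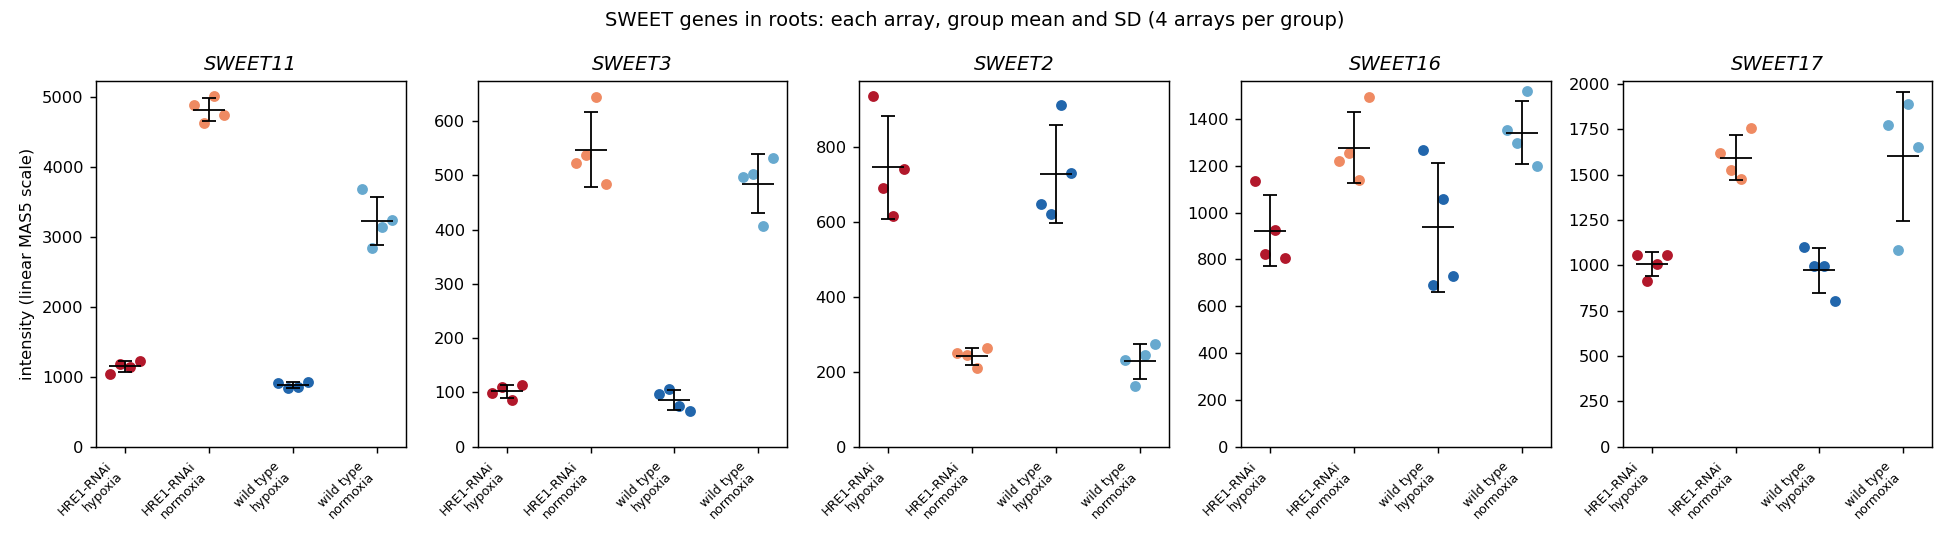
Intensity on the linear MAS5 scale of the 5 SWEET genes in each array (points), by group, with the group mean and SD (bars, n = 4); each gene has its own axis from 0. SWEET11 and SWEET3 are lower and SWEET2 is higher in every hypoxia array than in every normoxia array of both lines, whereas SWEET16 and SWEET17 overlap between conditions in wild type.

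Both clade IV genes encode tonoplast transporters: SWEET17 carries fructose and is known from roots, and SWEET16 carries fructose, glucose and sucrose. SWEET17 had 1056.4, 915.9, 1007.3 and 1054 in HRE1-RNAi hypoxia, against 1620.3, 1527.8, 1473.5 and 1754.7 in HRE1-RNAi normoxia. In wild type it had 1099.5, 997.3, 993.6 and 802.1 in hypoxia, against 1771.9, 1083.1, 1891.9 and 1653.1 in normoxia. The groups did not overlap in HRE1-RNAi, as for 19.5% of all probe sets, whereas in wild type normoxia array 2 fell among the hypoxia arrays. SWEET17 fell to 63.3% in HRE1-RNAi hypoxia, a change of -0.65 ± 0.15 log2 (limma adjusted p = 0.0029), and to 60.8% in wild type hypoxia, a change of -0.69 ± 0.15 (limma adjusted p = 0.00191), relative to the normoxia means.

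SWEET16 had 1134.2, 823.3, 928 and 804.7 in HRE1-RNAi hypoxia, against 1219, 1254.8, 1141.7 and 1493.4 in HRE1-RNAi normoxia. In wild type it had 1269.3, 690, 1059.2 and 730.7 in hypoxia, against 1351.9, 1295.6, 1519.6 and 1200.7 in normoxia. Wild type hypoxia had the widest relative spread of any group and member, with a coefficient of variation of 29.5%, and its array 1 lay within the normoxia range. In HRE1-RNAi the arrays of the conditions did not overlap, as for 19.5% of all probe sets. The change was -0.47 ± 0.17 log2 in HRE1-RNAi, which was not called (limma adjusted p = 0.0588), and -0.55 ± 0.17 log2 in wild type, which was called (limma adjusted p = 0.0251). The wild type call was lost without wild type normoxia array 1 or 3 or wild type hypoxia array 2 or 4 (adjusted p = 0.0582 to 0.106), with neither trend nor robust moderation (0.0572) and after median centring of the arrays (0.063). In HRE1-RNAi the gene was called without wild type hypoxia array 1 or 2 or HRE1-RNAi hypoxia array 1 (adjusted p = 0.0333 to 0.0446). Leaving out either wild type array kept the HRE1-RNAi change at -0.47, and only the shared spread estimate and the adjustment differed. It was also called there once the dimmest 40% of probe sets were dropped (adjusted p = 0.045) and with the replicate number as a block (limma adjusted p = 0.0381). The difference between the lines was 0.08 ± 0.24 log2 and was not called, so a call in wild type and none in HRE1-RNAi is not a difference between the lines.

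Balance between rises and falls depended on how arrays were scaled. Of the called probe sets, 41.3% were higher in HRE1-RNAi hypoxia and 40.5% in wild type hypoxia, and after median centring of the arrays these shares were 55.6% and 53.9%. Centring moved all changes up by 0.11 log2 in HRE1-RNAi and by 0.09 in wild type. The changes with centring were -1.95 and -1.76 for SWEET11, -2.14 and -2.22 for SWEET3, 1.66 and 1.70 for SWEET2, -0.54 and -0.60 for SWEET17 and -0.36 and -0.46 for SWEET16, in HRE1-RNAi and wild type in that order. No direction changed.

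**Figure D2:**
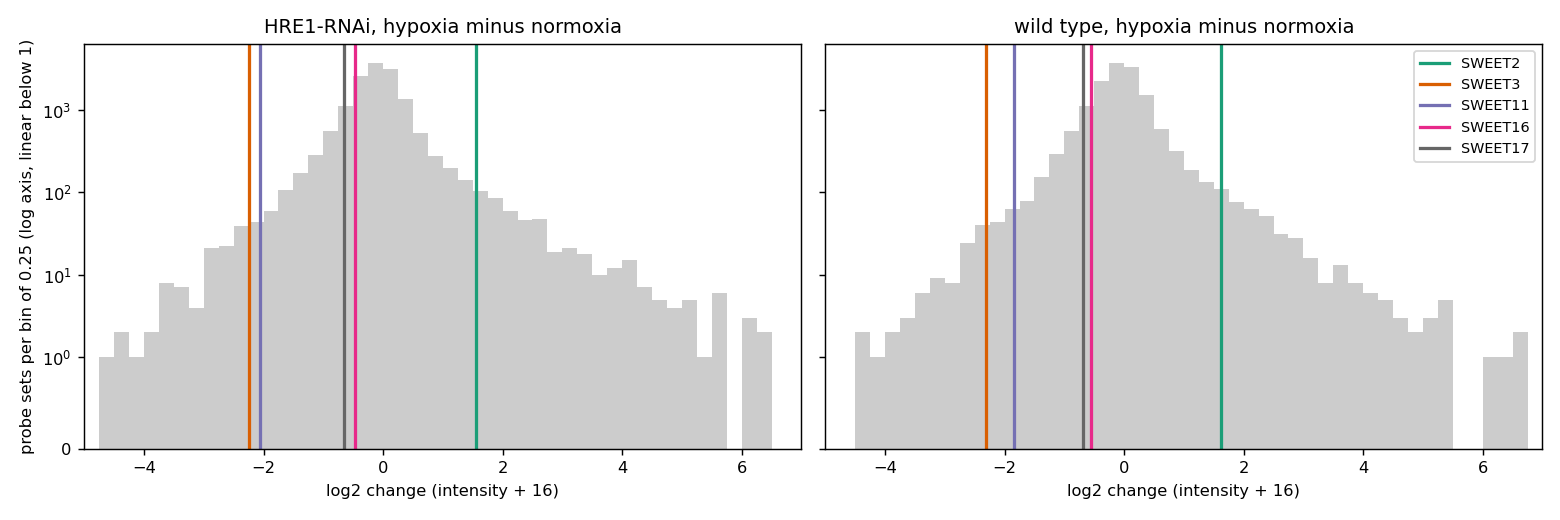
Log2 change between hypoxia and normoxia in HRE1-RNAi (left) and wild type (right): bars count the 14737 probe sets with a group mean of at least 100 per bin of 0.25 on a log axis, and coloured lines mark the 5 SWEET genes. SWEET3 and SWEET11 lie in the lower tail at -2.31 to -1.85, SWEET2 in the upper tail at 1.55 to 1.61, and SWEET16 and SWEET17 closer to the centre.

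The other 9 measured SWEET genes stayed below the threshold in all groups. Just outside it were SWEET13, with its highest group mean of 78.6 in HRE1-RNAi normoxia, and SWEET1, with its highest of 73 in wild type hypoxia, whereas SWEET3, the member with the lowest maximum, had 547 in HRE1-RNAi normoxia. Their group means lay between 6.53 and 78.6, and 3 of 36 were under the pseudocount of 16. Only 3 of 144 array values exceeded 100, and all 3 were of SWEET1, a plasma membrane glucose transporter. SWEET1 had 106.3, 69, 57.4 and 30.6 in HRE1-RNAi hypoxia, against 48.3, 81.5, 54.6 and 44.1 in HRE1-RNAi normoxia. In wild type it had 117.6, 44.2, 121.8 and 8.4 in hypoxia, against 81.6, 63, 95.3 and 37 in normoxia. The groups overlapped widely. The file holds no detection calls, so low values do not show that a gene was silent.

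None of these 9 genes was called in hypoxia against normoxia in either line by limma; at an unadjusted p below 0.05 there were 1 in HRE1-RNAi, where 28.3% of all probe sets passed, and 0 in wild type, where 28.1% did. The 1 was SWEET13, known to carry sucrose and gibberellin, with a mean of 42.7 ± 8.86 (SD) in HRE1-RNAi hypoxia against 78.6 ± 7.41 in HRE1-RNAi normoxia, a change of -0.70 ± 0.26 log2 (limma adjusted p = 0.0644). It was called there with a pseudocount of 64 (-0.42, adjusted p = 0.0464), under plain variance moderation (adjusted p = 0.0219) and without wild type normoxia array 1 (adjusted p = 0.0469). Plain moderation and the removal of that wild type array kept the change at -0.70, and only the spread estimate and the adjustment differed. Its adjusted p reached 0.173 under other settings. In wild type its means were 40.5 ± 11.7 in hypoxia and 63 ± 18.9 in normoxia, a change of -0.47 ± 0.26 (limma adjusted p = 0.25). Its arrays did not overlap in HRE1-RNAi, as for 19.5% of all probe sets, and did in wild type. Clade II, to which SWEET4, SWEET6, SWEET7 and SWEET8 belong, had group means of at most 56.3, the value of SWEET8 in wild type hypoxia. In clade III, SWEET9, SWEET10 and SWEET14 had group means between 6.53 (SWEET14 in HRE1-RNAi normoxia) and 44.65 (SWEET10 in wild type hypoxia).

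Family members that the reference names otherwise were not chosen by the rule. SAG29, the senescence-associated gene also known as SWEET15, averaged 40.7 ± 36.7 (SD) in HRE1-RNAi hypoxia against 55.95 ± 16.9 in HRE1-RNAi normoxia, and 37.6 ± 16.4 in wild type hypoxia against 67.2 ± 10.1 in wild type normoxia. AtVEX1, the pollen gene also known as SWEET5, had group means between 15.75 and 24.3. Neither was called in any of the 5 contrasts. SWEET12 was not analysed here.

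**Figure D3:**
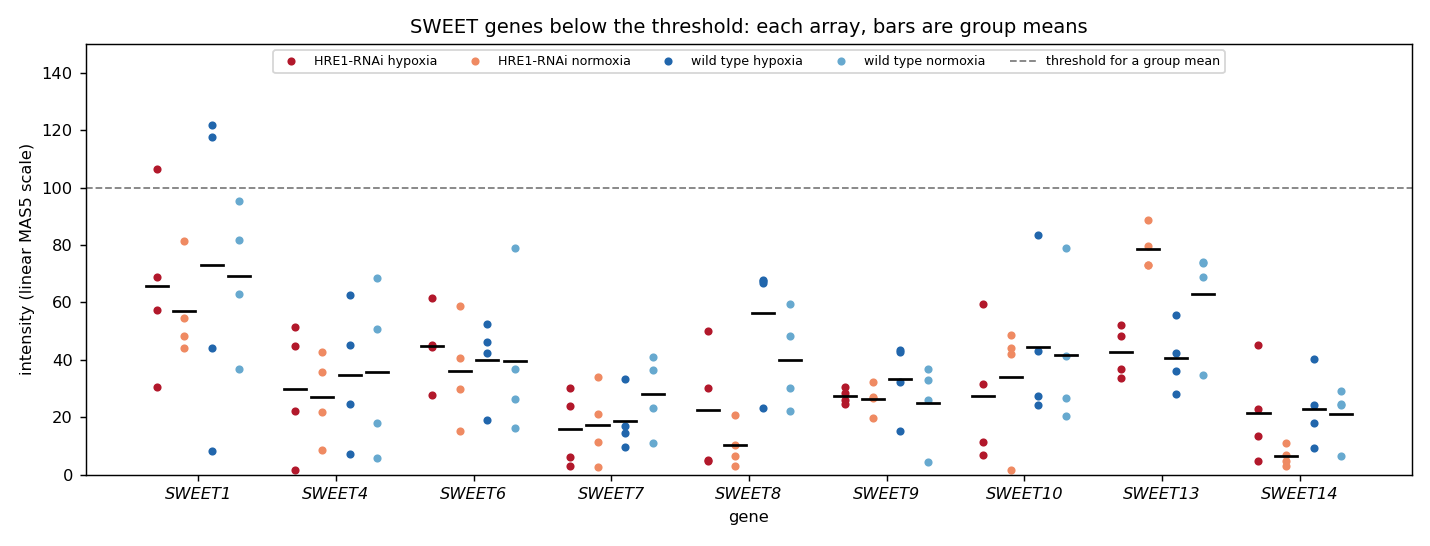
Intensity on the linear MAS5 scale of the 9 SWEET genes below the threshold, in each array (points) with group means (black bars); the dashed line marks a group mean of 100. SWEET1 and SWEET13 come closest, and 3 single arrays of SWEET1 exceed the line.

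The comparison of HRE1-RNAi with wild type asks whether targeting HRE1 changes SWEET levels. None of the 14 measured SWEET genes was called by limma in normoxia, where 0.0264% of all probe sets were called, or in hypoxia, where 0.022% were. At an unadjusted p below 0.05 there were 2 of 14 in each condition, SWEET11 and SWEET8, where 4.34% of all probe sets passed in normoxia and 4.55% in hypoxia. SWEET11 was named with results of these data known and SWEET8 lies below the threshold, so this count is no support for a difference of the family between the lines. The difference of the 2 hypoxia responses had 0 called and 0 with an unadjusted p below 0.05 among the 14, where 0.0176% of all probe sets were called and 3.39% had an unadjusted p below 0.05.

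SWEET11 had a larger difference between the lines than the other members in both conditions. The gene was named with results of these data known, so the p-values of this difference are not independent of its choice. All 4 HRE1-RNAi arrays lay above all 4 wild type arrays in hypoxia and in normoxia. In hypoxia the mean was 1148 ± 76.5 (SD) in HRE1-RNAi against 882 ± 40.97 in wild type, a difference of 0.37 ± 0.11 log2 (limma adjusted p = 0.802). In normoxia it was 4826 ± 168 in HRE1-RNAi against 3233 ± 347 in wild type, a difference of 0.58 ± 0.11 log2 with a 95% interval of 0.35 to 0.81 (unadjusted p = 2.63e-05 and limma adjusted p = 0.0747). Arrays of the lines did not overlap for 2.57% of all probe sets in hypoxia and 3.04% in normoxia. The normoxia difference was not called, and its adjusted p was below 0.05 under 3 of 25 alternatives: after quantile normalization of the arrays (adjusted p = 0.0372), once dim probe sets were dropped (adjusted p = 0.0412) and without both HRE1-RNAi arrays numbered 4 (adjusted p = 0.0397). Its adjusted p ranged up to 0.35 over all alternatives. LHCB4.1 differed by 0.09 ± 0.13 log2 between the lines in hypoxia and by -0.02 ± 0.13 in normoxia. The part of shoot tissue in the SWEET11 difference was not tested.

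The response of SWEET11 to hypoxia differed by -0.21 ± 0.15 log2 between HRE1-RNAi and wild type, with a 95% interval of -0.53 to 0.11 (limma adjusted p = 1). For the other members the same difference had 95% intervals of -0.55 to 0.43 for SWEET2, -0.42 to 0.53 for SWEET3, -0.41 to 0.58 for SWEET16 and -0.41 to 0.48 for SWEET17. These intervals leave room for differences of up to 0.58 log2, so equal responses are not shown. Between the lines within a condition, SWEET2, SWEET3, SWEET16 and SWEET17 differed by -0.07 to 0.23 log2, each with an interval that spans 0.

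SWEET8, a clade II gene known to be needed for pollen, had 22.6 ± 21.8 (SD) in HRE1-RNAi hypoxia against 56.3 ± 22.1 in wild type hypoxia, and 10.3 ± 7.65 in HRE1-RNAi normoxia against 40.1 ± 17.0 in wild type normoxia. The differences were -1.02 ± 0.39 log2 in hypoxia and -1.09 ± 0.39 in normoxia (limma adjusted p = 1 in both). These intensities are low, and their differences depend on the pseudocount.

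**Figure D4:**
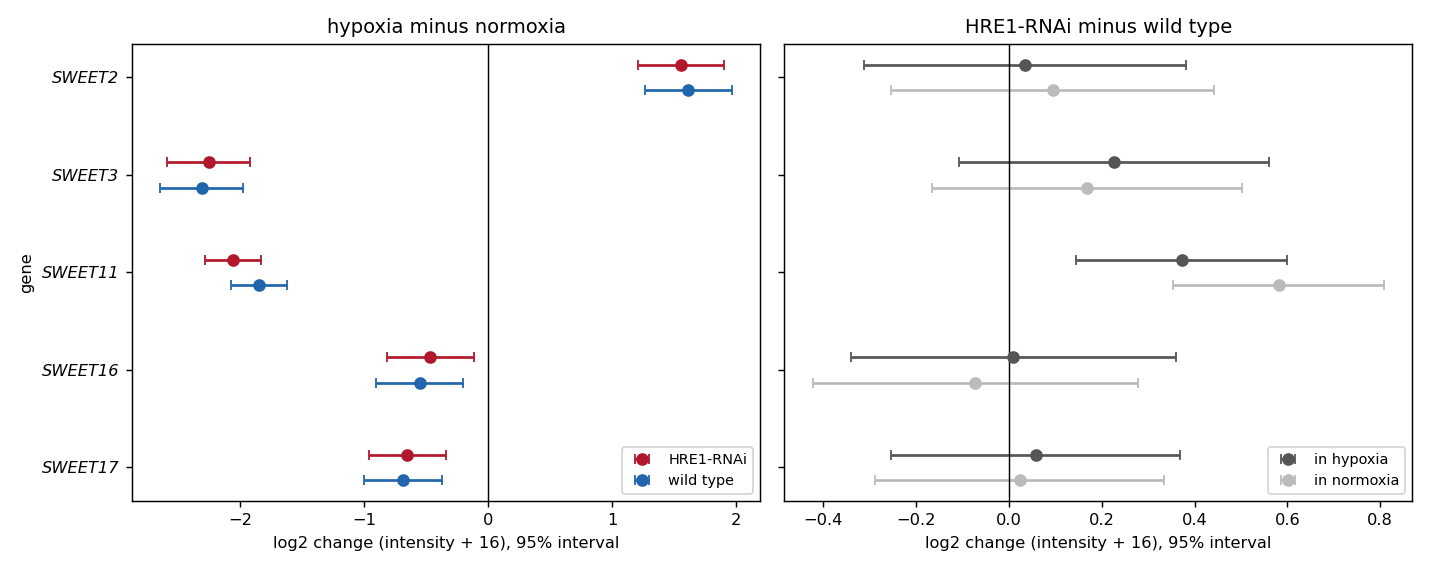
Log2 changes of the 5 SWEET genes with 95% intervals from the fit over all arrays: hypoxia minus normoxia in HRE1-RNAi and wild type (left) and HRE1-RNAi minus wild type in hypoxia and normoxia (right, with a narrower axis). The intervals of the 2 lines overlap for every gene on the left, and on the right SWEET11 alone has intervals that exclude 0.

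The order of group means separated conditions more than lines. SWEET11 ran from HRE1-RNAi normoxia (4826) through wild type normoxia (3233) and HRE1-RNAi hypoxia (1148) down to wild type hypoxia (882). No neighbours in this order overlapped. SWEET3 had the same order, but the 2 normoxia groups overlapped, as did the 2 hypoxia groups. For SWEET2 the order was HRE1-RNAi hypoxia (746), wild type hypoxia (728), HRE1-RNAi normoxia (241), wild type normoxia (228), with overlap between lines and none between conditions. For SWEET16 and SWEET17 both normoxia means were above both hypoxia means. Every pair of neighbours overlapped for SWEET16. For SWEET17 the lines overlapped within each condition, and the conditions overlapped in wild type but not in HRE1-RNAi.

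Over the 16 arrays the members' log2 levels followed the conditions, with Pearson correlations of 0.97 between SWEET3 and SWEET11 and -0.96 between SWEET2 and SWEET3. These points share their 4 groups, so the values describe the common split by condition. After each group's mean was removed, the correlations of the 10 pairs of members lay between -0.34 (SWEET2 and SWEET3) and 0.52 (SWEET2 and SWEET17), with 0.12 for SWEET3 and SWEET11. Of 8047 other single-gene probe sets with a group mean of at least 100, the 4 whose log2 levels were most like those of SWEET11 were AT3G43670 (r = 0.99), AT2G26690 (r = 0.98), SWEET3 (r = 0.97) and BAT1 (r = 0.97), which encodes a brassinosteroid-modifying acyltransferase, and 266 had r above 0.9. AT3G43670 averaged 235 in HRE1-RNAi hypoxia against 826 in HRE1-RNAi normoxia, and 212 in wild type hypoxia against 621 in wild type normoxia.

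Sugar carriers and genes named as enzymes of sugar metabolism outside the family were listed by gene identifier, and of 59 listed genes 12 were measured. The list was drawn up with earlier results of these data known, so the p-values of its genes are not independent of that choice. In HRE1-RNAi hypoxia 1 rose and 2 fell of these 12, where 18.2% of all probe sets were called, and the other 9 did not pass. The median of the 12 changes was -0.04 log2. In wild type hypoxia 1 rose and 3 fell, where 17.8% of all probe sets were called, the other 8 did not pass, and the median was -0.40. The medians over all probe sets were -0.06 in both lines. None was called between the lines in either condition.

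Invertases split sucrose into hexoses. Of 10 genes listed by an invertase name 2 were measured, and they moved in opposite directions in both lines. AT1G62660 of this group averaged 2525 ± 369 (SD) in HRE1-RNAi hypoxia against 6067 ± 414 in HRE1-RNAi normoxia, a change of -1.27 ± 0.12 log2 (limma adjusted p = 5.3e-08). In wild type it averaged 2275 ± 286 in hypoxia against 5987 ± 406 in normoxia, a change of -1.40 ± 0.12 (limma adjusted p = 1.35e-08). cwINV6 is named as a cell wall invertase and, by a synonym, as a fructan exohydrolase, and whether it splits sucrose was not tested. It averaged 554 ± 144 in HRE1-RNAi hypoxia against 215 ± 66.8 in HRE1-RNAi normoxia, a rise of 1.31 ± 0.23 (limma adjusted p = 0.000194). In wild type cwINV6 averaged 407 ± 130 in hypoxia against 192 ± 23.8 in normoxia, a rise of 0.96 ± 0.23 (limma adjusted p = 0.00439).

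Of 17 other sugar and polyol carriers 6 were measured, among them the tonoplast carriers TMT1, TMT2 and TMT3, which load hexoses and sucrose into the vacuole. TMT2 averaged 354 ± 81.9 (SD) in HRE1-RNAi hypoxia against 677 ± 92.2 in HRE1-RNAi normoxia, a change of -0.92 ± 0.18 log2 (limma adjusted p = 0.000445). In wild type it averaged 360 ± 47.7 in hypoxia against 548 ± 117 in normoxia, a change of -0.57 ± 0.18 (limma adjusted p = 0.0262). This wild type call was lost without wild type normoxia array 1 or 3 or wild type hypoxia array 1, 2 or 4 (adjusted p up to 0.109) and under 3 other settings. TMT1 changed by -0.46 ± 0.21 in HRE1-RNAi and -0.49 ± 0.21 in wild type, and neither was called. AT2G18480 fell in wild type hypoxia, to 54.25 ± 18.2 against 125 ± 17.8 in normoxia, by 1.03 ± 0.30 on the log2 scale (limma adjusted p = 0.0165), a call lost without wild type normoxia array 2 or wild type hypoxia array 2 or 4. In HRE1-RNAi it was not called, with 85.0 ± 27.6 in hypoxia and 114 ± 67.1 in normoxia.

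All 4 measured genes of 14 listed STP monosaccharide carriers were dim, with a highest group mean of 59.7 (AT1G34580 in wild type normoxia), and none was called in either line. Sucrose carriers of the SUC family, sucrose synthases and hexokinases had 0 of 9, 0 of 6 and 0 of 3 listed genes measured, so SUC2, SUS1 and SUS4 were not analysed here.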

How the data were processed

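Root RNA from 16 samples was hybridised to one-colour Affymetrix arrays as biotin-labelled cRNA. The deposited intensity values, 1 per probe set and array on a linear scale, come from MAS5 per the submitters' processing notes, with no version given. A mean of close to 500 in each array, once the extreme 2% at both ends are trimmed, shows that the arrays were scaled to a common level. No detection calls were used. Of 22810 probe sets, 64 controls were left out and 22746 were tested.

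Genes came from GEO's platform annotation, updated by gene identifier through RefSeq's table for TAIR10.1. Of the probe sets, 13513 had 1 gene, 503 several and 8730 none here, and 13436 of the first matched. The pairing was not checked against probe sequences. Members, sugar genes and marker lists were chosen with earlier results of these data known.

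The log2(intensity + 16) values of all 16 arrays were fitted in limma 3.58.1 (R 4.3.3) with 1 mean for each group, with 12 residual degrees of freedom and trended, robust variance moderation. The 5 contrasts were two-sided, with Benjamini-Hochberg adjustment over all probe sets. Intervals are 95% and unadjusted. The fit was tested on simulated data.

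Named are all measured SWEET genes, sugar list genes called in a hypoxia contrast, the 4 probe sets most correlated with SWEET11 and the markers. Single genes added as context are TMT1, SAG29 and AtVEX1. Over pairs within and between lines, 11 of 24 correlations of same-numbered replicates' deviations from their group means were above 0.1. The main fit did not pair samples by number. Between the conditions of HRE1-RNAi the correlations were 0.04, 0.41, 0.31 and 0.62 for replicates 1 to 4. In wild type they were 0.02, 0.22, 0.27 and 0.30. All negative correlations were between a wild type and an HRE1-RNAi array. The block tried was shared by both lines, so pairing within each line was not tested. The main p-values of hypoxia against normoxia, those of SWEET16 among them, leave such pairing out. Other settings tried were a pseudocount of 1 or 64, quantile or median scaling, a filter dropping the dimmest 40%, the replicate block, only the groups compared, plain moderation and leaving out arrays. Applying them to sugar genes was chosen after seeing the data.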

Additional observations from a re-analysis of the deposited data

How the results depend on the processing

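The hypoxia changes of SWEET2 and SWEET17 kept their direction and their call in both lines under all 25 alternatives. Those of SWEET3 and SWEET11, which are descriptions, kept their direction. SWEET16 lost its wild type call under 6 alternatives and gained one in HRE1-RNAi under 5. SWEET13, below the threshold, gained one in HRE1-RNAi under 3, chosen after seeing the data, and no other SWEET gene below the threshold was called under any of them. In normoxia 1 SWEET gene, SWEET11, was called between the lines with quantile normalization, without the dimmest 40% of probe sets and without both HRE1-RNAi arrays numbered 4, and 0 otherwise. A threshold of 50 gave 8 members in place of 5. Of 620 comparisons of a member's change with its main value, 581 kept direction and side of the threshold, 6 lost a call, 8 gained one and 25 changed sign, the last all among differences between the lines that were never called. With a pseudocount of 64 the SWEET3 difference of responses was -0.00093, and with centring the SWEET17 line difference in normoxia was -0.0025. Without both HRE1-RNAi arrays numbered 4 these were -0.043 and -0.024.

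Leaving out 1 array at a time gave, for the line difference in normoxia, -0.047 to 0.19 for SWEET2 and -0.15 to 0.11 for SWEET17. In hypoxia it gave -0.079 to 0.15 for SWEET2, -0.12 to 0.17 for SWEET16 and -0.031 to 0.12 for SWEET17. For the difference of responses it gave -0.17 to 0.081 for SWEET2, -0.040 to 0.15 for SWEET3, -0.047 to 0.24 for SWEET16 and -0.056 to 0.21 for SWEET17. AT2G18480 in HRE1-RNAi ranged from -0.52 to 0.030, above 0 without HRE1-RNAi normoxia array 3. The cause was not tested.

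With the replicate number as a block, SWEET16 was called in HRE1-RNAi (-0.47, adjusted p = 0.0381); no other call of a member changed. Same-numbered arrays correlated from -0.34 to 0.62, and 8 of 16 arrays were closest to their own number. Calls over all probe sets between the lines ranged from 4 to 17 in normoxia (main 6), 2 to 19 in hypoxia (main 5) and 1 to 6 for the difference of responses (main 4). Restriction to the groups compared could not be applied to the difference of responses. The dim SWEET genes have values near the pseudocount, and their changes are poorly measured.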
